A study of Mus musculus with 6 samples.

Results

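The Hoxc cluster is 1 of the 4 groups of linked Hox genes in the mouse genome. It was taken as the 9 RefSeq genes Hoxc4, Hoxc5, Hoxc6, Hoxc8, Hoxc9, Hoxc10, Hoxc11, Hoxc12 and Hoxc13, of 21887 protein-coding genes on the assembled chromosomes. These genes were listed by name and not by a cut on a measured value, but with earlier results of these data known. They span 115.726 kb of chromosome 15 (GRCm38, which is mm10; positions 102921131 to 103036856, counted from 1), and the interval described adds 50 kb on each side (chr15:102871131-103086856). The study mapped open chromatin with ATAC-seq (2 samples) and H3K27ac, histone H3 acetylated at lysine 27, with ChIP-seq (2 samples), beside 2 samples of input DNA, not analysed here. All 6 samples came from dorsal root ganglia of Runx3-BAC-GFP-CB6 transgenic mouse embryos at stage E11.5, from which GFP-positive cells were sorted as TrkC proprioceptive neurons, the sensory neurons of muscle stretch. GFP from the Runx3 BAC therefore defines the cells, and the labels do not say from which axial levels the ganglia were taken.

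Hox genes encode homeodomain transcription factors that give cells their position along the head-to-tail axis. Within a cluster all genes are transcribed in the same direction. Genes at the 3′ end of the cluster, such as Hoxc4, act in more anterior tissue, and genes at the 5′ end, such as Hoxc13, in more posterior tissue. H3K27ac marks active promoters and enhancers, whereas Polycomb complexes methylate the same lysine at silent Hox genes, so that the acetylated stretch of a cluster shows which of its genes carry active chromatin. For each assay the values are the positions in 1 consensus peak list, without signal and without values per sample. No spread between replicates and no test can therefore be given, the depth is unknown, and every comparison is a description. A peak present in part of the sorted cells cannot be told apart from a weaker peak in all of them.

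Acetylation covered most of the span of each anterior and central Hoxc gene and ended among the posterior ones. H3K27ac peaks covered 45.8% of the gene span (53013 of 115726 bp, 9 peaks), against 0.939% of the assembled chromosomes outside the interval. From Hoxc6 to Hoxc4 they covered 75.7%, from Hoxc9 to Hoxc8 60.7%, and from Hoxc13 to Hoxc10 10.2%. ATAC peaks, which are much narrower, covered 2.3% of the gene span (10 peaks, 2662 bp), against 0.451% outside the interval. In the whole interval there were 14 H3K27ac peaks (65521 bp, 30.4%) and 15 ATAC peaks (4014 bp, 1.86%).

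**Figure D1:**
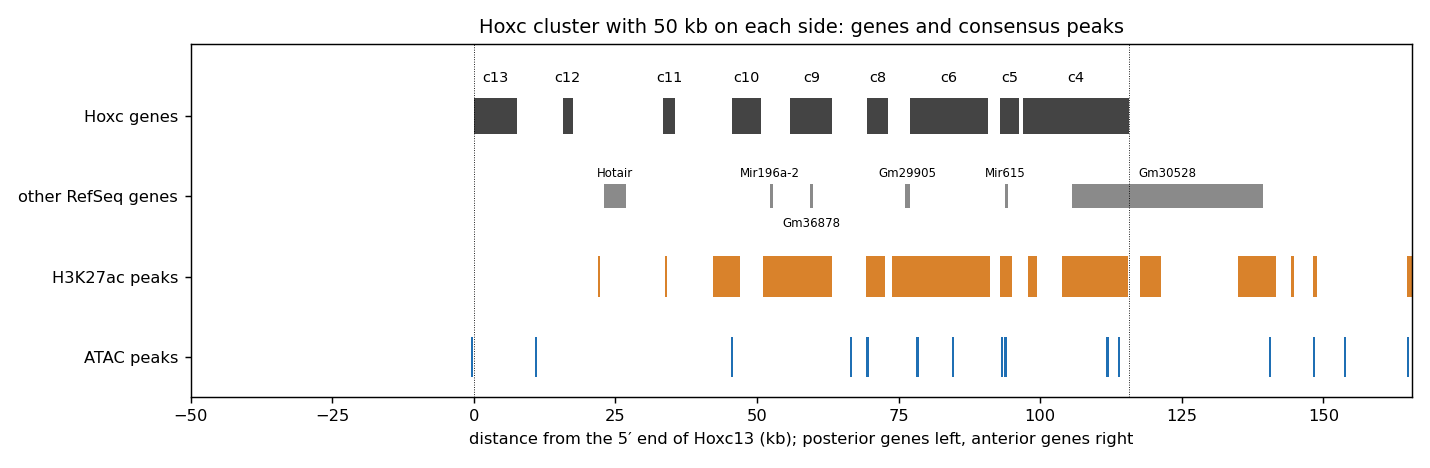
Genes, H3K27ac peaks and ATAC peaks of the interval, by distance in kb from the 5′ end of Hoxc13; dotted lines mark the ends of the gene span, and the narrowest features are drawn at a minimum width. H3K27ac is dense from Hoxc10 to Hoxc4 and in the anterior flank, and the posterior flank holds 1 ATAC peak and no H3K27ac peak.

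Sequences are shown for 4 start sites, 1 per gene matched, and for the microRNAs that RefSeq (GRCm38.p6) places under this acetylation. Of the 9 members, Hoxc4 was matched in the promoter table used here, and 3 long noncoding RNAs of the interval were matched as well. Each window runs from 250 bp before to 50 bp after a start site, and all 4 windows printed lay wholly inside an H3K27ac peak and outside every ATAC peak. Capitals mark matches on either strand to any of 5 motifs searched. The PBX-HOX type site was spelled TGATNNAT, which 8.85% of the 32851 promoter windows in the table hold. The homeodomain site was spelled TAATTA, which 5.29% of these windows hold. The TATA box was searched for with the letters TATAAA, and 13.6% of the windows in the table hold it. The Runx type site was searched for with the letters TGTGGT, and 16.8% of the windows hold it. The GC box was searched for with the letters CCGCCC, and 35.7% of the windows hold it. A match describes the letters and is not evidence of binding.

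Hoxc4 (chr15:103034145-103034444, plus strand): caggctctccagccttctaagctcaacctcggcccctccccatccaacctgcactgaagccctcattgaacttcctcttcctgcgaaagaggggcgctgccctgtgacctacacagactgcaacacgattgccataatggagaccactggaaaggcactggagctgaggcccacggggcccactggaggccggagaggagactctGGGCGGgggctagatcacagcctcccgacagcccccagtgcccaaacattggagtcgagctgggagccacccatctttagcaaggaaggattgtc
Gm29905 (chr15:102998118-102998417, minus strand, over the annotated 5′ end of Hoxc6): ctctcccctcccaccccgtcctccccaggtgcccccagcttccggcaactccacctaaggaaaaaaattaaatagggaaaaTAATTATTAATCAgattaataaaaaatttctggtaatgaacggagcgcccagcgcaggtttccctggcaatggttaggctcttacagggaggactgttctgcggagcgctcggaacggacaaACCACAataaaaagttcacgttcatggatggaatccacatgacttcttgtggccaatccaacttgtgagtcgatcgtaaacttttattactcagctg
Gm36878 (chr15:102981014-102981313, minus strand, inside Hoxc9): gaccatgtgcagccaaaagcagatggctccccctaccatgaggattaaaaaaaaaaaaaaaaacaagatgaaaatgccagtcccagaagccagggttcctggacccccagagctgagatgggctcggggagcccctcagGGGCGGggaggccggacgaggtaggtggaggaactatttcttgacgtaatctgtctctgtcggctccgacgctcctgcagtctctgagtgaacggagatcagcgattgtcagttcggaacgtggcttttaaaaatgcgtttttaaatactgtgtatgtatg
Gm30528 (chr15:103060506-103060805, minus strand, anterior flank): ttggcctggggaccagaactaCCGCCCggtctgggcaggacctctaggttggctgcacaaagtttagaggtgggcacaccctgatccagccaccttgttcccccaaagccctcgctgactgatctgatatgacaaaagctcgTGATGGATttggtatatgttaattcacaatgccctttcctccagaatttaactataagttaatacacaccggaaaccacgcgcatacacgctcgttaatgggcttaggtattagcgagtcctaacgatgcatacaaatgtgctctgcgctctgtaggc

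The Hoxc4 window held 1 CCGCCC match and 9 CG dinucleotides, beside a median of 7 over all windows. The window of Gm29905, which also contains the annotated 5′ end of Hoxc6 at position 102998226, held TGATNNAT (102998324 to 102998331) and TAATTA (102998331 to 102998336), which share 1 base, and TGTGGT. Its CG count was 12. The windows of Gm36878 and Gm30528 had 13 and 12 CG dinucleotides and 1 CCGCCC match each, and that of Gm30528 also had TGATNNAT. Gm30528 has 3 more start sites in the table, at positions 103032274, 103032276 and 103032280 within the span of Hoxc4, whose overlapping windows also lay wholly under H3K27ac and outside every ATAC peak. These 3 windows, not printed, had 3 CG dinucleotides, 3 CCGCCC matches and 1 TGTGGT match each, and no TGATNNAT. None of the 7 windows held TATAAA.

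The interval also holds 2 microRNA genes, both on the plus strand. Capitals mark the seed, bases 2 to 8, which pairs with target transcripts.
miR-196a-5p (Mir196a-2): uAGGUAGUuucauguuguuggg
miR-196a-2-3p (Mir196a-2): uCGGCAACaagaaacugccuga
miR-615-5p (Mir615): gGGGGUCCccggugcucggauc
miR-615-3p (Mir615): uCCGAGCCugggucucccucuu
The microRNA miR-196a, which is known to act on Hox transcripts such as that of Hoxb8, shares its seed in the table with miR-196b-5p, encoded in the Hoxa cluster. Mir196a-2 (chr15:102973350-102973434) lies between Hoxc10 and Hoxc9. All of its 85 bp were inside the H3K27ac peak that also covers Hoxc9, and it held no ATAC peak. Mir615 (chr15:103014910-103015001) lies within Hoxc5, and all of its 92 bp were inside both an ATAC peak of 287 bp and an H3K27ac peak of 2011 bp.

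Of the 9 Hoxc genes, 7 had H3K27ac no more than 1 kb from either annotated end, against 49.3% of all protein-coding genes, and the exceptions were Hoxc12 and Hoxc13. An ATAC peak within 1 kb of an end was found at 4, Hoxc5, Hoxc8, Hoxc10 and Hoxc13, against 60.4% of all genes. Both were present at 3 genes (47.8% of all genes), Hoxc5, Hoxc8 and Hoxc10. The 4 genes with H3K27ac and without ATAC at an end, a state found at 1.5% of all genes, were Hoxc4, Hoxc6, Hoxc9 and Hoxc11. For 2 of them this rests on the annotated 5′ end and on the window: the Hoxc4 start site of the promoter table, 16298 bp inside the gene span, had an ATAC peak 471 bp away, and the first ATAC peak of Hoxc6 began 1038 bp inside the gene. Hoxc13 had ATAC alone (12.7% of all genes), and Hoxc12 had neither (38.1%). Inside the gene, 7 held H3K27ac (54.4% of all genes) and 4 held ATAC (68.2%). At least 50% of the span was acetylated in 5 of the 9 (1.66% of all genes), Hoxc4, Hoxc5, Hoxc6, Hoxc8 and Hoxc9, and at least 90% in Hoxc6 and Hoxc9 (0.631%). A long gene is less easily covered to such a share, and the genes counted beside Hoxc were not matched for length. Neighbouring genes share peaks and are not independent.

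The anterior genes carried long acetylated stretches with open regions inside them. Hoxc4, a gene of neck-level tissue, spans 18760 bp in RefSeq. H3K27ac peaks of 1526 and 11627 bp covered 70.1% of it. The start site in the promoter table lies 16298 bp inside this span, in the wider of these peaks. ATAC peaks of 129 and 386 bp lay in the same H3K27ac peak, and the wider of them began 471 bp downstream of that start site. Hoxc5, which in the mouse acts in motor neurons that drive breathing, was covered to 58.8% by a peak of 2011 bp that began 55 bp inside its 5′ end. Its ATAC peaks of 403 and 287 bp began 178 and 794 bp inside the gene, the second of them over Mir615. Hoxc6, which helps to specify forelimb-level motor neurons, was covered entirely by 1 H3K27ac peak of 17320 bp, the 6th widest of 19924 in the genome. That peak also covered Gm29905 and 81.9% of the space between Hoxc6 and Hoxc8. It held ATAC peaks of 492 and 119 bp, which began 1038 and 7301 bp inside the gene.

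The central genes differed in their open chromatin. Hoxc8, a gene of the lower forelimb and upper thoracic level, had an ATAC peak of 317 bp across its annotated 5′ end, and an H3K27ac peak of 3193 bp covered 83.4% of the gene. Hoxc9, which specifies thoracic identity in spinal motor neurons, was covered to 98.0% by an H3K27ac peak of 12147 bp, the 15th widest in the genome, yet held no ATAC peak. The nearest ATAC peaks lay 10308 bp upstream of its 5′ end, at Hoxc10, and 3098 bp beyond its 3′ end. A gene with at least 50% of its span under H3K27ac and no ATAC peak in it or within 1 kb was rare (0.0366% of all genes, 8 genes). These 8, named after their values were seen, were Hoxa9, H1f5, Hoxc9, Foxd3, H1f1, Hoxd4, Ccdc182 and Crp. The H3K27ac peak of Hoxc9 also covered 95.1% of the space towards Hoxc10, where Mir196a-2 lies.

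Acetylation thinned out over the posterior genes. Hoxc10, a gene of the lumbar level and hindlimb, had an ATAC peak of 257 bp that ended 72 bp upstream of its 5′ end. That open region lay in an H3K27ac peak of 4746 bp, which reached from 3420 bp upstream of the gene into its first part and covered 26.0% of it. Hoxc11, a gene of the lumbosacral level and hindlimb, held 1 H3K27ac peak of 185 bp, 8.50% of its span, and no ATAC peak. Hoxc12 held neither mark. Hoxc13, known for its role in hair and nails, held neither mark inside the gene, but an ATAC peak of 282 bp (chr15:102920681-102920962) ended 169 bp upstream of its 5′ end. The nearest H3K27ac peak was 22111 bp from that ATAC peak.

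**Figure D2:**
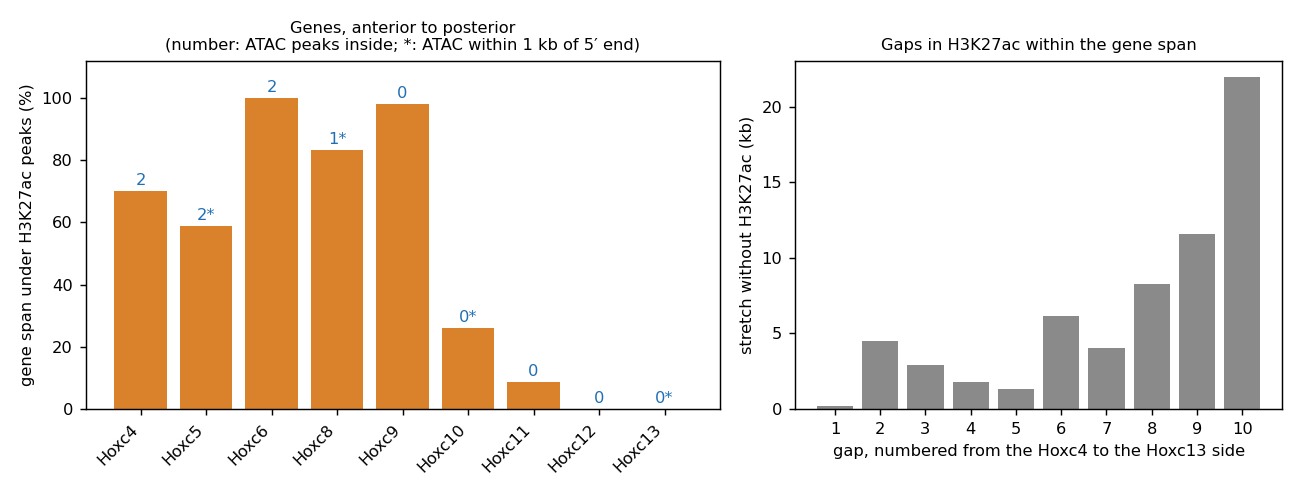
Left, share of each Hoxc gene span under H3K27ac peaks (%), with the number of ATAC peaks inside the gene; right, length in kb of each stretch without H3K27ac in the gene span, numbered from the Hoxc4 to the Hoxc13 side. Shares are 58.8% or more from Hoxc4 to Hoxc9 and 26.0% or less from Hoxc10 to Hoxc13. The longest gap, 21942 bp up to the end of the span, is the most posterior one.

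Within the gene span, 10 stretches lay outside H3K27ac. These gaps had a median of 4276 bp, and 9 were at least 1 kb and 4 at least 5 kb long. The first and the last gap were cut by the ends of the span. That of 188 bp continued in the anterior flank to the H3K27ac peak at position 103038715. That of 21942 bp was the part inside the span of a stretch of 221 kb without H3K27ac. The 3 most posterior gaps were also the 3 longest. The gap of 21942 bp held Hoxc12 and Hoxc13 whole and 1 ATAC peak. The next, of 11600 bp, held Hotair and the annotated 5′ end of Hoxc11. The one of 8260 bp ran from within Hoxc11 to upstream of Hoxc10, without an ATAC peak. Between Hoxc9 and Hoxc8 a gap of 6163 bp held 2 ATAC peaks, 1 of which reached past the gap's end into the Hoxc8 peak. The other 6 gaps, of 188 to 4523 bp, held no ATAC peak. They included the annotated 5′ ends of Hoxc4 and Hoxc5, from which H3K27ac began 896 and 55 bp downstream. The widest ATAC-free H3K27ac peak was that over Hoxc9, and the spaces between genes ranged from 0% covered (Hoxc4 to Hoxc5 and Hoxc12 to Hoxc13) to 95.1% (Hoxc9 to Hoxc10).

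The posterior limit of acetylation depended on which peaks were counted. The most posterior H3K27ac peak of the gene span, 258 bp wide (chr15:102943073-102943330), lay between genes, 4464 bp from Hoxc12, 11196 bp from Hoxc11 and 732 bp from Hotair. Hotair is a long noncoding RNA best known from human cells, where it was described to act on the HOXD cluster. Its 3885 bp held neither mark. The peak at Hoxc11 was the next one. By width these peaks of 258 and 185 bp ranked 19107 and 19570 of 19924. The first H3K27ac peak of at least 1 kb from the posterior side was that at Hoxc10, whose edge at position 102963376 lay 42.2 kb from the 5′ end of Hoxc13. Beyond the most posterior peak, no H3K27ac peak followed for 221 kb. ATAC reached further, to the peak at 102931895 to 102932033 between Hoxc12 and Hoxc13 (139 bp) and to the one upstream of Hoxc13. Beyond the peak upstream of Hoxc13, no ATAC peak followed for 113 kb.

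Most open regions of the interval were acetylated. Of its 15 ATAC peaks, 11 overlapped H3K27ac by at least 1 bp (73.3%, 95% Wilson interval 48.0 to 89.1, counting error only), against 39.6% (39.1 to 40.0) of the 43637 ATAC peaks outside it. The 4 without H3K27ac were the one upstream of Hoxc13, the one between Hoxc13 and Hoxc12, the one of 133 bp between Hoxc9 and Hoxc8, which lay 2788 bp from the nearest H3K27ac peak, and the one of 259 bp in the anterior flank, 4754 bp from the nearest. Over all peaks of both lists, 39.6% of ATAC peaks overlapped H3K27ac and 68.9% of H3K27ac peaks overlapped ATAC. Of the 14 H3K27ac peaks of the interval, 8 overlapped an ATAC peak. The 6 without one included the peak of Hoxc9, both narrow posterior peaks and the peak of 1526 bp in Hoxc4. The 11 acetylated ATAC peaks lay in the other 8 and are not independent, which the Wilson interval leaves out. H3K27ac also covered far more of the interval (30.4%) than of the chromosomes outside it (0.939%). ATAC peaks of the interval had a median width of 282 bp, against 217 bp over the whole list. The H3K27ac peaks had a median of 2602 bp against 1036 bp, and 5 of the 425 H3K27ac peaks of at least 4 kb in the genome (2.13% of all) lay here. Of the 23 of at least 10 kb (0.115%), 3 lay here, over Hoxc4, Hoxc6 and Hoxc9.

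The flanks were unlike each other. In the posterior 50 kb the only peak was the ATAC peak upstream of Hoxc13. The anterior 50 kb held 5 H3K27ac peaks (12508 bp of 50000) and 4 ATAC peaks, 3 of them acetylated. Gm30528, a long noncoding RNA of 33749 bp that overlaps the 3′ part of Hoxc4 and runs into this flank, was covered to 53.8% by H3K27ac. Its outer start site lay in an H3K27ac peak of 6601 bp, which also held an ATAC peak of 213 bp, 961 bp from the start site. The other 2 long noncoding RNAs under the acetylation, Gm36878 and Gm29905, were each covered entirely and held no ATAC peak. At the 50 kb limit, the last peaks inside were an ATAC peak ending 687 bp and an H3K27ac peak ending 123 bp before it, and the next ones outside began 15229 and 15088 bp after it.

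Seen beside the other Hox clusters, Hoxc had the fewest ATAC peaks per 100 kb and an intermediate extent of H3K27ac. Its gene span held 8.64 ATAC peaks per 100 kb, against 18.0 in Hoxa, 10.3 in Hoxb and 14.4 in Hoxd. H3K27ac covered 45.8% of the Hoxc span, against 66.9% of Hoxa, 50.2% of Hoxb and 36.3% of Hoxd, in 9 peaks against 6, 2 and 9. The number of genes with an ATAC peak within 1 kb of the 5′ end was 4 of 9 in Hoxc, against 7 of 11 in Hoxa, 6 of 10 in Hoxb and 5 of 9 in Hoxd. With H3K27ac there, the counts were 7 in Hoxc, 9 in Hoxa, 8 in Hoxb and 4 in Hoxd. The share over all genes was not computed for the 5′ end alone. For either end it was 60.4% with ATAC and 49.3% with H3K27ac. Each cluster has 1 value per measure, so these differences were not tested.

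In all 4 clusters acetylation stopped short of groups 12 and 13. The most posterior gene touched by H3K27ac was Hoxc11 (8.50% of its span), against Hoxa10 (62.2%), Hoxb9 (100%), beside which the next Hoxb gene is Hoxb13, and Hoxd11 (5.32%). No gene of paralogue groups 12 and 13 held H3K27ac: 0 of 2 in group 12 and 0 of 4 in group 13. ATAC peaks lay within 1 kb of the 5′ end of 3 of the 4 group 13 genes, Hoxc13, Hoxb13 and Hoxd13, and the nearest to that of Hoxa13 was 3706 bp away. All 4 genes of group 9 were acetylated at the 5′ end, and Hoxc9 shared the lack of an ATAC peak there with Hoxa9. For these counts at the 5′ end, too, no share over all genes was computed. In group 10, Hoxc10 was covered to 26.0%, against 62.2% of Hoxa10 and 3.47% of Hoxd10. In group 8, Hoxc8 was covered to 83.4%, against 100% of Hoxb8 and 88.1% of Hoxd8.

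**Figure D3:**
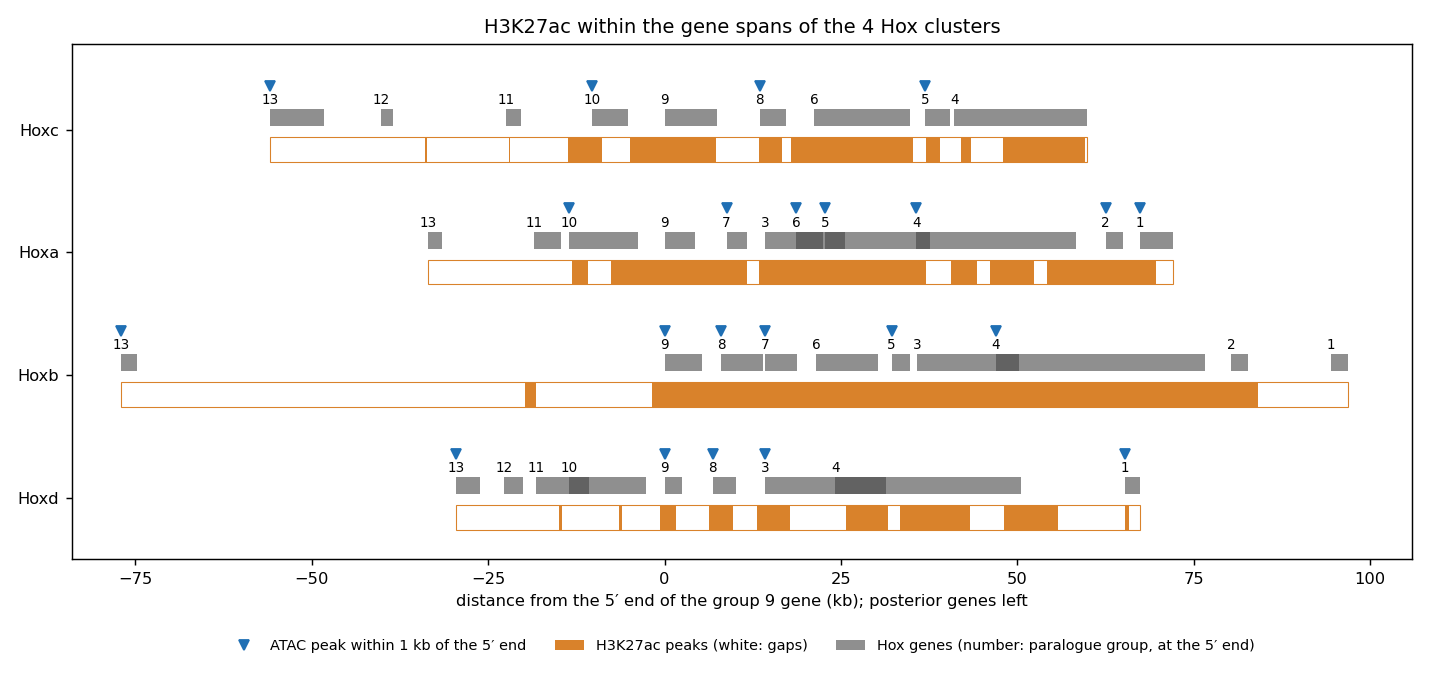
Gene spans of the 4 Hox clusters aligned at the 5′ end of the group 9 gene, by distance in kb, with H3K27ac peaks in orange and gaps in white; triangles mark 5′ ends with an ATAC peak within 1 kb. Every gene of groups 12 and 13 lies in a gap, and 3 of the 4 group 13 genes have an ATAC peak at the 5′ end.

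When H3K27ac peaks at most 10 kb apart were joined into domains, the main Hoxc domain (chr15:102954931-103042526) ran from Hoxc11 past Hoxc4, with 9 peaks and 56567 bp under H3K27ac. It ranked 3rd of 16290 domains by covered bp. The 2 above it were those of Hoxb (85798 bp) and Hoxa (70607 bp), and the 2 below were that of Hoxd (35179 bp) and one on chromosome 2 without a protein-coding gene (31586 bp). Among 23351 windows of the length of the Hoxc gene span, laid end to end along the chromosomes, 1 held more H3K27ac (0.00428%) and 291 held more ATAC peaks (1.25%). The Hoxc span was taken whole, whereas these windows have fixed edges that can split a domain. The Hoxa and Hoxb domains each hold more H3K27ac and are shorter than a window, so at least 1 of them was split. These counts are therefore low for stretches of this length placed freely. In the median window there was 0 bp of H3K27ac and 1 ATAC peak.

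**Figure D4:**
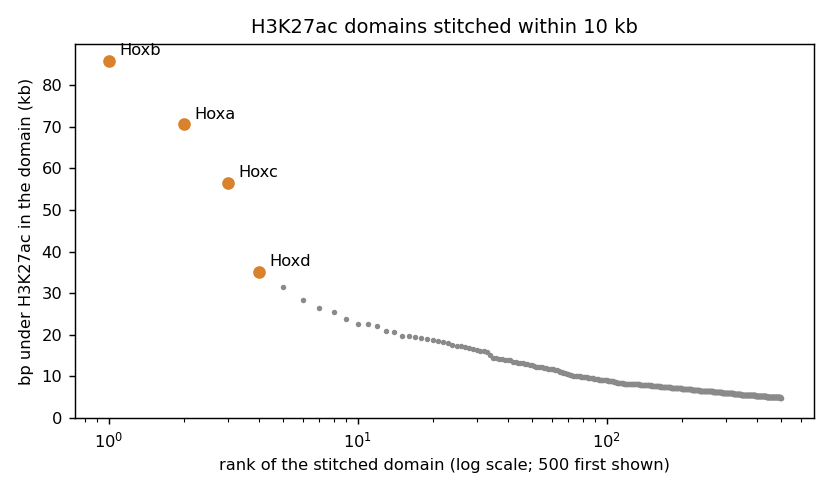
Base pairs under H3K27ac in each joined domain (kb) against its rank on a log scale, for the first 500 of 16290 domains, with the Hox domains in orange. Hoxc stands 3rd with 56567 bp, between Hoxa and Hoxd.

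Genes that act with Hox proteins or on Hox genes were counted against all protein-coding genes, of which 49.3% had H3K27ac and 60.4% had ATAC within 1 kb of an end. Of 9 Hox cofactor genes, whose proteins bind DNA together with Hox proteins, all 9 had H3K27ac and 8 had ATAC within 1 kb of an end. The exception for ATAC was Meis3, with 1 ATAC peak inside the gene. Polycomb, trithorax and H3K27 demethylase genes set or remove the repressive and active states of Hox chromatin. Of the 17 genes on this list, 16 had H3K27ac and 15 had ATAC at an end. The list includes Ctcf, which belongs to none of these groups and had both at an end. The one without either was Cbx7, a Polycomb subunit that had 4 ATAC and 2 H3K27ac peaks inside the gene. Kdm6b, an H3K27 demethylase, had H3K27ac alone at an end, and 46.3% of its span was acetylated. Of 12 axial regulators, 6 had H3K27ac and 7 had ATAC at an end, close to the shares over all genes. Counted over the gene and 1 kb on each side, Rara, a retinoic acid receptor gene, had the most acetylated bp (16823), followed by Gdf11, a signal of the posterior axis, with 4124 bp. Rara and Rarb, another retinoic acid receptor gene, were not open at an end but held 8 and 5 ATAC peaks. Cdx1 and Cdx4, caudal-type factors that turn on posterior Hox genes, and Cyp26a1, which degrades retinoic acid, held neither mark. The third caudal-type gene of the list, Cdx2, had ATAC at an end and no H3K27ac.

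Marker genes were checked for the labelled cells, beside 49.3% of all genes with H3K27ac and 60.4% with ATAC at an end. Of 9 genes of sensory neurons and the TrkC lineage, 7 had H3K27ac and 8 had ATAC at an end. All 9 held both inside the gene, where 54.4% of all genes held H3K27ac and 68.2% held ATAC. At Ntrk3, the gene of TrkC, and at Runx3, H3K27ac lay inside the gene and not at an end. Of 5 genes of glia and neural crest, 4 had H3K27ac and 3 had ATAC at an end. Of 4 genes of motor neurons and ventral spinal cord, 0 had H3K27ac and 3 had ATAC at an end (Lhx3, Mnx1 and Olig2). Of 6 genes of mesenchyme and muscle, 1 had H3K27ac (Twist1) and 4 had ATAC (Pax1, Myod1, Tbx18 and Twist1). Of 4 genes of blood and endothelium, 0 had H3K27ac and 1 had ATAC (Spi1). Inside the gene, H3K27ac was held by 3 glia and neural crest, 0 motor neuron, 1 mesenchyme and 1 blood gene. ATAC inside the gene was held by 2, 2, 6 and 2 genes of these lists, which for mesenchyme and muscle is all 6. The part of other cell types in the Hoxc peaks was not tested.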

How the data were processed

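Chromatin of sorted cells (50000 per preparation, per the labels) was profiled by ATAC-seq and by ChIP-seq for H3K27ac. The authors deposited 1 consensus list of peak positions per assay over its 2 replicates. Per the submitters' processing notes, cutadapt 1.18, Bowtie2 2.3.5.1, MACS2 and bedtools were used on mm10; thresholds and the way the consensus was formed are not given in the sources used here. The lists hold no score or count, so depth and replicate spread are unknown.

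The lists were limited to chromosomes 1 to 19, X and Y (43652 of 43739 ATAC and 19924 of 19928 H3K27ac peaks). No peak overlapped another of its own list. Gene spans came from RefSeq GRCm38.p6, which gives here neither exons nor strand. The 5′ end of each Hox gene was taken from the strand that the promoter table records for members of its cluster, with all genes of a cluster read in the same direction. Overlap means at least 1 bp. Genome shares use the length from the lowest to the highest gene or peak position on each chromosome (2704 Mb in all). Genes named by rule are the members, the other RefSeq genes of the interval, paralogues at the posterior limits, genes of domains ranked next to the Hoxc domain, and exceptions or leading members of 3 pathway lists, not all of which are printed. Markers, the 8 covered genes without ATAC and genes beyond the anterior flank were named outside this rule, after their values were seen. Members, lists and settings were chosen with earlier results of these data known. Interval counting was checked on simulated intervals (200 draws, 0 mismatches). Python 3.11.15, numpy 2.4.6, pandas 2.3.3 and scipy 1.17.1 were used. Alternatives were other flanks, windows and joining distances, the wider 50% of each list, 50% overlap, and, added after the data were seen, 5′ ends alone.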

Additional observations from a re-analysis of the deposited data

How the results depend on the processing

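Of 28 alternative settings, 21 left the result in place, taken as within 1.5 times for counts and ranks, within the Wilson interval for the overlap share, and as exactly equal for the covered share, the longest gap and the posterior limit. This tally is not a measure of robustness. Bridging gaps under 1 kb could not change a longest gap of 21942 bp, and the Wilson interval (48.0 to 89.1) is wide. Changes from 15 to 10 ATAC peaks and from 4 to 6 genes lay exactly at the limit of 1.5 times. The domain kept rank 3 when peaks were joined within 5 kb or 20 kb and with the wider 50% of the list. The count of Hoxc genes with H3K27ac at an end was 6 or 7 under its alternatives. With ATAC it was 4, except for 6 of 9 with a window of 2.5 kb. The share over all genes was not computed for that window, so 4 of 9 beside 60.4% describes the 1 kb window only. The overlap of ATAC with H3K27ac was 60.0% with the wider 50% of each list and 80.0% without flanks. The 14 H3K27ac peaks of the interval became 9 without flanks and 9 with the wider 50% of the list, since fewer bases or peaks were counted. The H3K27ac share of the gene span was close to its 45.8%, at 45.4%, with the wider 50% of the list, and 30.4% over the span with its flanks. With the wider 50%, both narrow posterior peaks were dropped, so the longest gap became 42245 bp and the posterior limit moved to position 102963376, upstream of Hoxc10. Taken as the edge of the joined domain, the limit lay at position 102954931, in Hoxc11. Both narrow peaks thus decide whether the limit is placed at Hoxc10, at Hoxc11 or towards Hoxc12. No paired analysis was possible because each assay has 1 consensus list and no values per replicate; for the same reason, leaving out a replicate was not run. Depth is unknown, so the lack of a peak says only that none was called at these thresholds.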

Other observations

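Peaks continued beyond the anterior 50 kb. In the next 50 kb there were 3 H3K27ac peaks of 974, 236 and 135 bp and 4 ATAC peaks of 200, 435, 243 and 145 bp. The H3K27ac peak of 974 bp and the ATAC peak of 200 bp overlapped each other inside Gm28876, a long noncoding RNA that starts 58330 bp beyond the 3′ end of Hoxc4. Smug1, a DNA repair gene, is the nearest protein-coding gene on that side, 116434 bp from Hoxc4. It had 4 ATAC and 2 H3K27ac peaks in the gene or within 1 kb. With peaks joined within 20 kb, the Hoxc domain ran from position 102943073 to 103106917, with 17 peaks and 66866 bp under H3K27ac.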
